A study of Mus musculus with 2 samples.

Results

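The genes described here are 10 components and targets of canonical Wnt signalling, measured by RNA-seq in mouse CGR8 embryonic stem cells. They are the DNA-binding factors Tcf7l1, Tcf7, Lef1 and Tcf7l2, the co-activator gene Ctnnb1, the destruction complex genes Apc and Axin2, the membrane ubiquitin ligase genes Rnf43 and Znrf3, and the transcription factor gene Sp5. Each was found by its RefSeq transcript among 22421 genes, and where several transcripts were listed the one with the highest summed value stood for the gene. The levels are RPKM, reads scaled by transcript length and by library depth, so that levels of different genes can be set side by side. Of the 10 genes, 8 had a mean of at least 1 RPKM over both libraries, as did 11802 of all genes; Rnf43 and Sp5 did not.

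The Set1a siRNA group was 1 library of CGR8 cells transfected with an siRNA against Set1a, a gene listed as Setd1a for a protein that methylates lysine 4 of histone H3. The control siRNA group was 1 library of CGR8 cells transfected with a negative siRNA. In both groups cells were transfected more than once over 72 hours and grew without feeder cells on gelatin, in serum with leukaemia inhibitory factor. The comparison asked what lowering SET1A does to expression genome-wide. With 1 library per group there was no replicate check and no test, and every ratio below compares these libraries.

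In canonical Wnt signalling, a destruction complex built on APC and AXIN marks β-catenin for degradation, and a Wnt ligand at the cell surface stops this. β-catenin then enters the nucleus and binds TCF/LEF factors at target genes. In mouse embryonic stem cells TCF7L1 acts mainly as a repressor, also of genes of the pluripotency network, and β-catenin relieves that repression, while TCF7 and LEF1 mainly activate. β-catenin is controlled largely through the stability of the protein, which RNA-seq does not measure. AXIN2, RNF43, ZNRF3 and SP5 are products of Wnt target genes: AXIN2 rebuilds the destruction complex, RNF43 and ZNRF3 remove Wnt receptors from the surface, and SP5 is a zinc finger factor that binds many of the same target genes.

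RefSeq promoter windows of build GRCm38.p6, from 250 bases before to 50 after a start, were at hand for 8 of the genes in 15 windows; the build differs from the mm9 of the expression files, and Apc and Znrf3 had no entry. The TCF/LEF core letters CTTTGAT were searched on both strands and occurred in 1 of the 15 windows (6.67%), that of Sp5. The share of all 32851 windows was 3.73%, and 1 match does not set the members apart. Other forms of the site were not searched. The match began 104 bases before the start, on the strand of the gene, and is in capitals in the sequence below, the window chr2:70474673-70474972 on the plus strand. It is shown because it is the member window that holds the match.
Sp5: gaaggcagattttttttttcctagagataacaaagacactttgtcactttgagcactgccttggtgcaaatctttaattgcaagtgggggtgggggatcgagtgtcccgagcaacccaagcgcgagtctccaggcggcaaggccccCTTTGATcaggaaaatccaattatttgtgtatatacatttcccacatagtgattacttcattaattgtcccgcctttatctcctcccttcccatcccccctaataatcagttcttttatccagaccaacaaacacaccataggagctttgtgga

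SET1A complexes are known to be brought to CpG-rich promoters, and CpG was counted in the windows. The median was 18 CpG and a GC content of 67.3% over the 15 windows, against 7 CpG and 52.7% over all windows. Lef1 and some other genes count with several windows, and all windows include those of genes that are not expressed. The members were not compared with other expressed genes, and SET1A binding was not measured. Of the sequences below, all on the plus strand, that of Tcf7l2 (chr19:55741560-55741859) belongs to the lowest expression ratio among the 10 genes, that of Axin2 (chr11:108920099-108920398) to the highest ratio among those above 1 RPKM, and that of Rnf43 (chr11:87662837-87663136) to a gene near the limit of detection. Capitals mark CpG, of which Tcf7l2 held 34, Axin2 31 and Rnf43 10; Sp5 held 6.
Tcf7l2: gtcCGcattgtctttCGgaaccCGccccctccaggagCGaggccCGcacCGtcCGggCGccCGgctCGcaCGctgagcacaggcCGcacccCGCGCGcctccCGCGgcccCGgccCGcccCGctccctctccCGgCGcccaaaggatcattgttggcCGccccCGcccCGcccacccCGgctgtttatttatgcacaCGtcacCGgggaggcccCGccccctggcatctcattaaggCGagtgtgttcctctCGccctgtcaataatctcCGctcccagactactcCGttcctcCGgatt
Axin2: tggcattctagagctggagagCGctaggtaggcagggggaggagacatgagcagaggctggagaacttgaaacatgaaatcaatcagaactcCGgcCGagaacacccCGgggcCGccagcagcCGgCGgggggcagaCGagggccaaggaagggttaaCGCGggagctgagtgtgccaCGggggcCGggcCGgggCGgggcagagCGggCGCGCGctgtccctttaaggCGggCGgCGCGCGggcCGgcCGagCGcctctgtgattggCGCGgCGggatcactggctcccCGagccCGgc
Rnf43: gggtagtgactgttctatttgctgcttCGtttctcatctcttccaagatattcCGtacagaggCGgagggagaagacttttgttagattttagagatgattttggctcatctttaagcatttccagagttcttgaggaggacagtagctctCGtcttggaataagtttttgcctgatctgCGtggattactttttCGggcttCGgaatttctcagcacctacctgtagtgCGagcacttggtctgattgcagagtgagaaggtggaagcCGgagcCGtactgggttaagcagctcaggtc
The windows of Lef1, a gene above 1 RPKM, held 5 to 21 CpG, the second listed start of Rnf43 held 3 and that of Tcf7l2 held 7. Which start was used was not measured.

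The depth was about 6410000 reads for the Set1a siRNA library and 6650000 reads for the control siRNA library, read from the spacing of the low values, where 1 read is the smallest step. Setd1a, the gene the siRNA targets, was at 11.97 RPKM in the Set1a siRNA library and 14.2 RPKM in the control siRNA library, a ratio of 0.846. Its counting interval, an exact Clopper-Pearson 95% interval from 456 Set1a siRNA reads and 559 control siRNA reads, was 0.746 to 0.959. A lower fold was found for 1781 of the 11802 genes (15.1%), and 11.3% of genes had an interval below 1, so Setd1a did not stand apart from the other genes. How far SET1A was lowered is not established in these libraries, as the protein was not measured. Such intervals cover counting error only, not variation between cultures. The 6 embryonic stem cell markers (Pou5f1, Nanog, Zfp42, Sox2, Esrrb and Klf4) summed to 1866 RPKM in the Set1a siRNA library and 1891 RPKM in the control siRNA library. Sox2 had a ratio of 0.875 (0.835 to 0.917), and the intervals of the other 5 included 1. Markers of other cells were low: 5 fibroblast markers summed to 5.35 RPKM in the Set1a siRNA library and 2.99 RPKM in the control siRNA library, with Col1a2 at 0 in both. The sums were 2.03 RPKM with Set1a siRNA and 1.95 RPKM with control siRNA for 4 primitive endoderm markers, and 4.44 RPKM with Set1a siRNA and 3.18 RPKM with control siRNA for 4 mesoderm markers, of which Mesp1 was at 0 in both. The 4 neural markers summed to 34.9 RPKM in the Set1a siRNA library and 31.6 RPKM in the control siRNA library, mostly Tubb3. The part of such cells in the results below was not tested, and in bulk RNA fewer cells of a type and less RNA per cell cannot be told apart.

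Levels of the 10 genes covered a wide range, from 201 RPKM for Ctnnb1 to under 0.3 RPKM for Rnf43 and Sp5. No gene of the 8 above 1 RPKM differed by 2-fold: 0 were at least 2-fold higher or lower in the Set1a siRNA library on the log2(RPKM + 1) scale, on which 1.18% of the 11802 genes were. At 1.5-fold the count was also 0, with 4.52% of all genes past it. Tcf7l2 was the 1 member whose counting interval excluded a ratio of 1, as did the intervals of 23.5% of 11670 genes with a known length; 1 of 8 is not above that share. The scale with 1 RPKM added understates differences of low genes. The median log2 fold of the 8 genes was 0.05, beside 0.0063 for all genes.

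**Figure D1:**
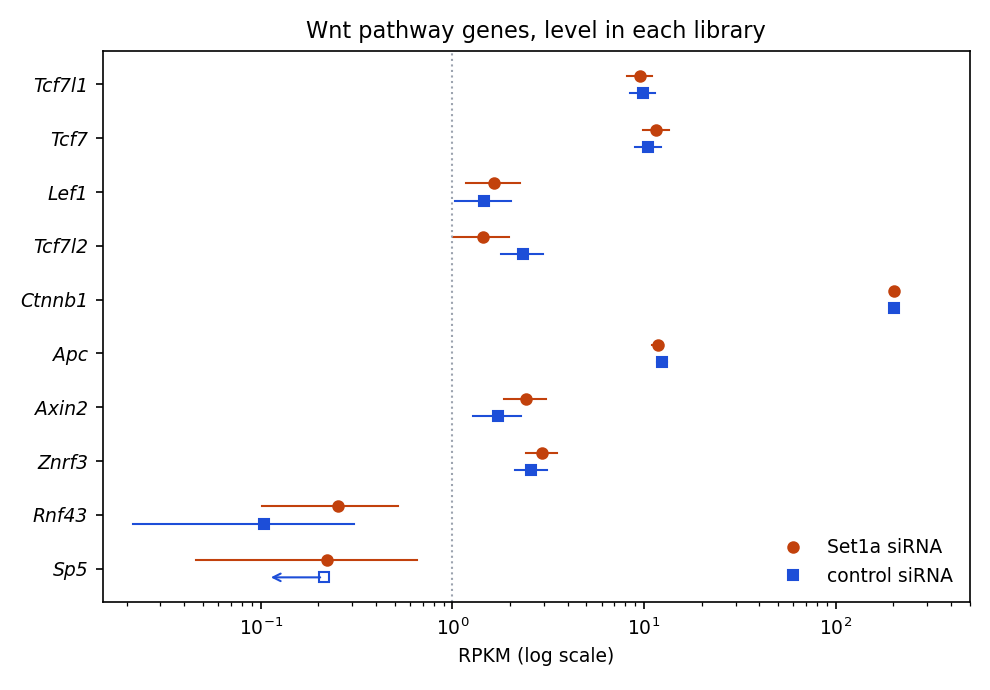
Level of each of the 10 genes in RPKM (log axis) in the Set1a siRNA library (circles, upper) and the control siRNA library (squares, lower); lines are exact 95% Poisson counting intervals, the dotted line is 1 RPKM and the open square with an arrow is the limit of 3 reads for Sp5, which had 0 control reads. Ctnnb1 stands far above the others, and the lines of both libraries overlap for each of the 9 genes with reads in both.

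The repressor gene Tcf7l1 was at 9.48 RPKM in the Set1a siRNA library and 9.86 RPKM in the control siRNA library, from 167 Set1a siRNA reads and 180 control siRNA reads. Its ratio was 0.962, with an interval of 0.774 to 1.19. Both libraries thus held nearly the same level. The second listed transcript gave a ratio of 0.968.

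Tcf7, which encodes TCF1, an activating partner of β-catenin, was at 11.6 RPKM in the Set1a siRNA library and 10.5 RPKM in the control siRNA library. The ratio was 1.096 (0.875 to 1.37), from 165 Set1a siRNA reads and 156 control siRNA reads. Tcf7 and Tcf7l1 were therefore present at similar levels, and their counting intervals overlapped within each library. The ratio of Tcf7l1 to Tcf7 in RPKM was 0.821 in the Set1a siRNA library and 0.936 in the control siRNA library.

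Lef1, the other mainly activating factor, was at 1.65 RPKM in the Set1a siRNA library and 1.47 RPKM in the control siRNA library. With 39 Set1a siRNA reads and 36 control siRNA reads its ratio of 1.12 had a wide interval, 0.695 to 1.82. Lef1 and Tcf7l2 were the minor factors of the family in these cells. Summed over the 4 TCF/LEF genes, the level was 24.1 RPKM in the Set1a siRNA library and 24.2 RPKM in the control siRNA library. Tcf7 made 47.9% of that sum in the Set1a siRNA library and 43.6% in the control siRNA library. Tcf7l1 made 39.3% in the Set1a siRNA library and 40.8% in the control siRNA library, and Lef1 made 6.83% with Set1a siRNA and 6.07% with control siRNA. Tcf7l2 made 5.97% in the Set1a siRNA library and 9.62% in the control siRNA library.

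Tcf7l2, which encodes TCF4, a factor that can activate or repress and is best known from the intestine, was at 1.44 RPKM in the Set1a siRNA library and 2.33 RPKM in the control siRNA library. The ratio was 0.619 (0.400 to 0.944), from 37 Set1a siRNA reads and 62 control siRNA reads. Its log2 fold was -0.45, and 472 of the 11802 genes (4.0%) had a lower one. The files list 8 transcripts of Tcf7l2. In the Set1a siRNA library 7 of them had 37 reads and 1 had 35; in the control siRNA library 6 had 62 reads, 1 had 61 and 1 had 46. The 8 values therefore do not stand for separate observations, since nearly all transcripts carry the same read numbers. The transcript with 35 Set1a siRNA reads and 46 control siRNA reads, NM_001142924, was at 1.58 RPKM in the Set1a siRNA library and 2.00 RPKM in the control siRNA library. Its ratio was 0.789, and the interval of 0.493 to 1.25 included 1. The lower Tcf7l2 level thus rests on few reads, and it depends on the transcript read.

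**Figure D2:**
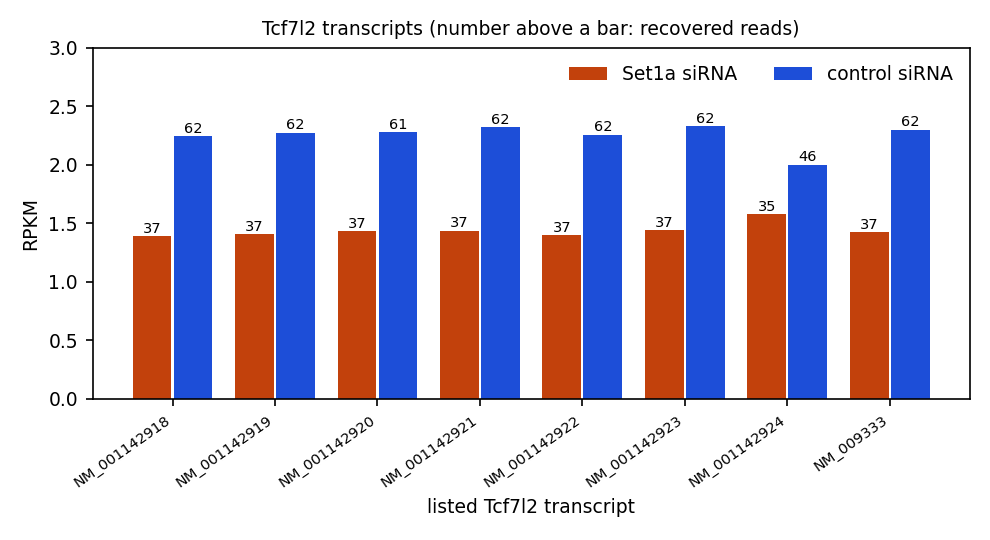
RPKM of the 8 listed Tcf7l2 transcripts in the Set1a siRNA library (left bar of each pair) and the control siRNA library (right bar), with recovered reads above each bar. All 8 are lower in the Set1a siRNA library, and NM_001142924, with 35 Set1a siRNA reads and 46 control siRNA reads, shows the smallest gap.

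Ctnnb1, the β-catenin gene, was the most abundant of the 10, at 201.4 RPKM in the Set1a siRNA library and 201.5 RPKM in the control siRNA library. Its ratio was 0.9997 with the narrowest interval of the set, 0.954 to 1.05, from about 3502 Set1a siRNA reads and 3631 control siRNA reads. That ratio lay on the other side of 1 when the libraries were rescaled without the 50 most abundant genes, so it has no direction. The second listed transcript had a ratio of 0.989 (0.9497 to 1.03). Apc, the scaffold that binds β-catenin, was at 11.8 RPKM in the Set1a siRNA library and 12.4 RPKM in the control siRNA library, a ratio of 0.953 (0.872 to 1.04). These are the members with the most reads, with 976 Set1a siRNA reads and 1062 control siRNA reads for Apc, and both intervals were narrow and included 1.

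Axin2, the most used readout of Wnt signalling, was at 2.41 RPKM in the Set1a siRNA library and 1.73 RPKM in the control siRNA library. It had the highest ratio of the 8 genes above 1 RPKM, 1.40, from 66 Set1a siRNA reads and 49 control siRNA reads, and its interval of 0.950 to 2.06 included 1. Its log2 fold of 0.32 was above that of 10582 of the 11802 genes (89.7%). Znrf3, for a membrane ubiquitin ligase, was at 2.94 RPKM in the Set1a siRNA library and 2.57 RPKM in the control siRNA library, a ratio of 1.14 (0.873 to 1.496). Its paralog Rnf43 was at 0.253 RPKM in the Set1a siRNA library and 0.105 RPKM in the control siRNA library. With 7 Set1a siRNA reads and 3 control siRNA reads the ratio of 2.42 had an interval of 0.552 to 14.5. Sp5 was at 0.223 RPKM in the Set1a siRNA library, from 3 reads, and at 0 in the control siRNA library, where 0 reads allow a level of up to 0.215 RPKM. No ratio is given for Sp5, as both values lie within 3 reads. Axin2 and Znrf3 were thus higher by value in the Set1a siRNA library, as were 51.2% of all genes above 1 RPKM, and both intervals included 1; Rnf43 and Sp5 were near the limit of detection.

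**Figure D3:**
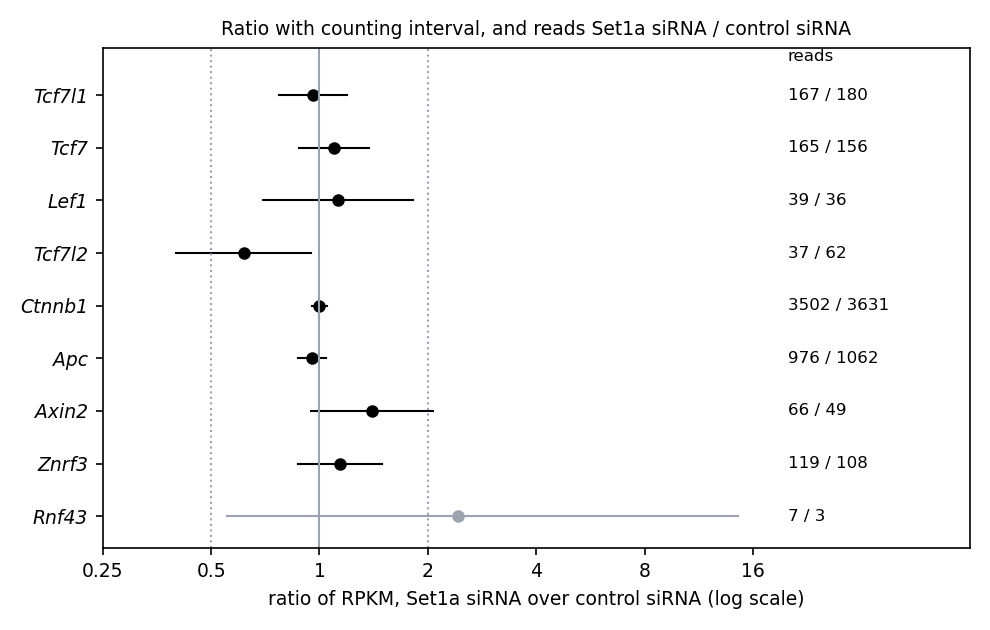
Ratio of RPKM, Set1a siRNA over control siRNA (log axis), for the 9 genes with a ratio; lines are exact 95% counting intervals, dotted lines mark 2-fold, recovered reads are printed at the right and the grey point is Rnf43, under 1 RPKM. The interval of Tcf7l2 lies below 1 and the other 8 include 1.

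Ordered by level, Ctnnb1 came first, and neither library's interval of it overlapped that of Apc, the next gene. Apc, Tcf7 and Tcf7l1 followed at about 10 to 12 RPKM, and neighbours among them overlapped in both libraries. Znrf3, Axin2, Tcf7l2 and Lef1 formed a lower step between 1 and 3 RPKM, again with overlapping neighbours, and below them came Rnf43 and Sp5. The order of the steps was the same in both libraries, since the intervals that separate Tcf7l1 from Znrf3 and Lef1 from Rnf43 did not overlap in either. Against all genes above 1 RPKM, 7 of the 8 members lay between the 5th and 95th percentiles of the log2 fold, -0.40 and 0.47, and Tcf7l2, at -0.45, lay below them.

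**Figure D4:**
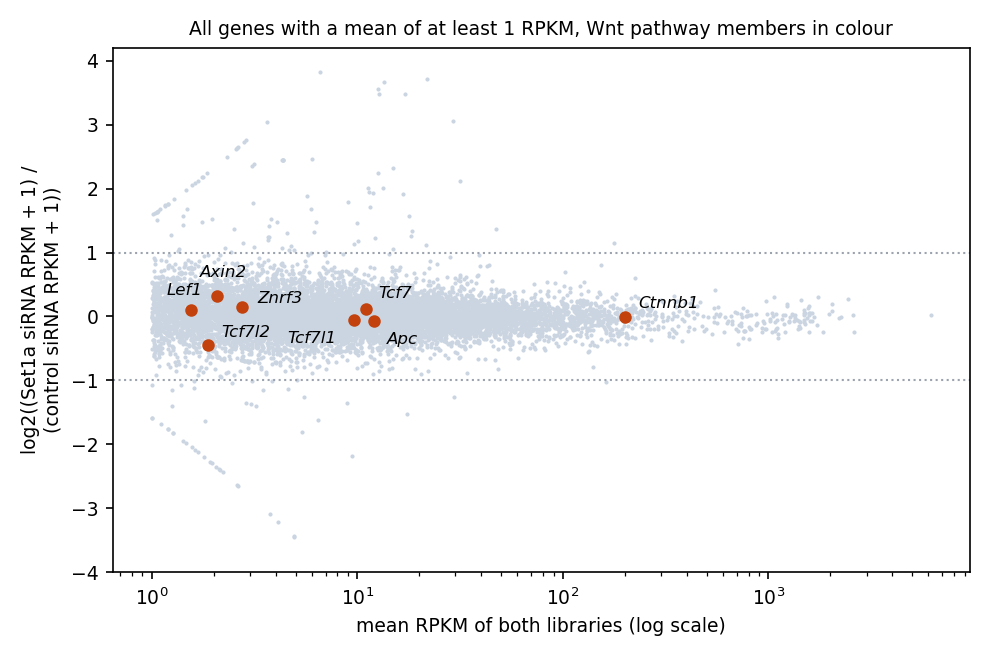
Log2 fold on the log2(RPKM + 1) scale, Set1a siRNA over control siRNA, against the mean RPKM of both libraries (log axis) for 11802 genes (grey), with the 8 members above 1 RPKM in colour and dotted lines at 2-fold. All 8 lie between -0.45 and 0.32.

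A further 128 genes of the pathway, in 11 lists ordered by role, were read in the same way. The lists are not fully separate, since 4 genes stood in 2 lists and count in both. Notum, Apcdd1 and Dkk1 were listed as inhibitors and as other Wnt targets, and Lgr5 with the R-spondin receptors and as a target. Of the 128 genes, 81 had a mean of at least 1 RPKM. On the log2(RPKM + 1) scale 0 of the 81 were at least 2-fold higher or lower, against the 1.18% of all genes. With 0.1 RPKM added in place of 1, 1 of the 81, Cer1, was at least 2-fold lower and 0 were higher. The share of all genes past 2-fold was then 2.30%, so that 1 gene does not set the lists apart. Of the 81 genes, 17 (21.0%) had an interval that excluded 1, close to the 23.5% of all genes. Of the 17, 9 were higher and 8 lower in the Set1a siRNA library, beside 12.2% of all genes with an interval above 1 and 11.3% with one below it. The median log2 fold of the 81 genes was 0.01.

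Wnt ligand genes were nearly silent. Of 19 ligand genes, 7 were listed at 0 in both libraries and 1 passed 1 RPKM. This was Wnt4, at 2.73 RPKM in the Set1a siRNA library and 2.63 RPKM in the control siRNA library. Both secretion genes were measured. Porcn, for the acyltransferase that makes Wnt proteins active, was at 16.7 RPKM in the Set1a siRNA library and 13.8 RPKM in the control siRNA library, a ratio of 1.21 (0.984 to 1.496). Wls, for the Wnt carrier of the secretory pathway, had a ratio of 1.17 (0.877 to 1.56).

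Of 16 receptor genes, 13 were above 1 RPKM, 8 higher and 5 lower by value, with a median log2 fold of 0.07. A mean of at least 5 RPKM was reached by 7 of them. Fzd5 was the highest, at 26.6 RPKM in the Set1a siRNA library and 27.6 RPKM in the control siRNA library. Ptk7, a co-receptor used in planar polarity, was at 24.96 RPKM in the Set1a siRNA library and 19.95 RPKM in the control siRNA library, a ratio of 1.25 (1.12 to 1.40). The interval of Lrp5, a co-receptor of canonical signalling, 1.01 to 1.36, also lay above 1; Lrp5, like Ctbp1 and Tle3 below, was chosen after its values were seen, because its interval excluded 1. Fzd8 had a ratio of 1.33 (0.978 to 1.81). Of the 7 genes for R-spondins, the ligands that protect Wnt receptors from RNF43 and ZNRF3, and for their receptors, 2 passed 1 RPKM. Lgr4 was at 13.5 RPKM in the Set1a siRNA library and 13.9 RPKM in the control siRNA library. Lgr5 was at 2.58 RPKM in the Set1a siRNA library and 2.52 RPKM in the control siRNA library.

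Inhibitor genes spread most, with 10 of 17 above 1 RPKM, 5 higher and 5 lower by value, and a median log2 fold of -0.05. Sfrp1, for a secreted protein that binds Wnt, was the highest, at 41.1 RPKM in the Set1a siRNA library and 47.1 RPKM in the control siRNA library, a ratio of 0.873 (0.807 to 0.945). Its paralog Sfrp2 went the other way, at 10.4 RPKM in the Set1a siRNA library and 6.31 RPKM in the control siRNA library. That was a ratio of 1.65 (1.25 to 2.20), from 134 Set1a siRNA reads and 84 control siRNA reads. Cer1, in the inhibitor list and for an antagonist of Nodal and BMP, had a ratio of 0.432 (0.184 to 0.937). That ratio came from only 10 Set1a siRNA reads and 24 control siRNA reads.

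Of 18 genes for Dishevelled and partners of the destruction complex, 17 were above 1 RPKM, 11 higher and 6 lower by value, with a median log2 fold of 0.05. Dvl3, for a Dishevelled relay protein, was at 6.64 RPKM in the Set1a siRNA library and 4.73 RPKM in the control siRNA library, a ratio of 1.40 (1.07 to 1.86). Gsk3a, for a kinase that marks β-catenin, had a ratio of 1.24 (1.08 to 1.42). Csnk1a1, for the kinase that primes β-catenin, was the highest, at 100.5 RPKM in the Set1a siRNA library and 110.5 RPKM in the control siRNA library, a ratio of 0.909 (0.862 to 0.958).

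Among 18 cofactors of β-catenin and TCF, 16 were above 1 RPKM, 6 higher and 10 lower by value, with a median log2 fold of -0.02. The Groucho corepressor genes did not share a direction. Tle1 had a ratio of 1.36 (1.05 to 1.77), while the interval of Tle3, 0.801 to 0.984, lay below 1. Tle5, the short family member that can oppose the others, was at 106.8 RPKM in the Set1a siRNA library and 91.5 RPKM in the control siRNA library, a ratio of 1.17 (1.07 to 1.28). Ctbp1, for another corepressor, had a ratio of 1.17 (1.02 to 1.34), and Tbl1x, a corepressor subunit that also binds β-catenin, 0.821 (0.737 to 0.914).

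Cdh1, which encodes E-cadherin, the protein that holds β-catenin at cell junctions, was at 47.9 RPKM in the Set1a siRNA library and 64.96 RPKM in the control siRNA library. Its ratio of 0.737 rested on 1361 Set1a siRNA reads and 1915 control siRNA reads and had an interval of 0.687 to 0.790. Of the other 3 genes of that list, Ctnna1 had a ratio of 0.950 (0.901 to 1.002), and the intervals of all 3 included 1.

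Other Wnt target genes gave no common direction, with 9 of 16 above 1 RPKM, 5 higher and 4 lower by value, and a median log2 fold of 0.01. Myc, also a target of many other pathways, was at 11.8 RPKM in the Set1a siRNA library and 8.09 RPKM in the control siRNA library, a ratio of 1.46 (1.16 to 1.85). Dkk1, a target gene that encodes a secreted inhibitor, had a ratio of 0.678 (0.345 to 1.30) from 17 Set1a siRNA reads and 26 control siRNA reads. Ccnd1, for cyclin D1, was the highest, at 31.2 RPKM in the Set1a siRNA library and 29.7 RPKM in the control siRNA library.

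Of 5 pluripotency genes that TCF7L1 is known to repress, 2 were higher and 3 lower by value, with a median log2 fold of -0.0054. Nanog had a ratio of 1.03 (0.988 to 1.08). Tfcp2l1, a factor of the naive network, was at 75.8 RPKM in the Set1a siRNA library and 87.0 RPKM in the control siRNA library, a ratio of 0.871 (0.837 to 0.906). In planar cell polarity, 6 of 10 listed genes were above 1 RPKM, 3 higher and 3 lower by value, with a median log2 fold of -0.04. Celsr1 had a ratio of 0.831 (0.707 to 0.976), Dact1 1.15 (0.828 to 1.60) and Vangl1, the highest, 1.08 (0.980 to 1.19).

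**Figure D5:**
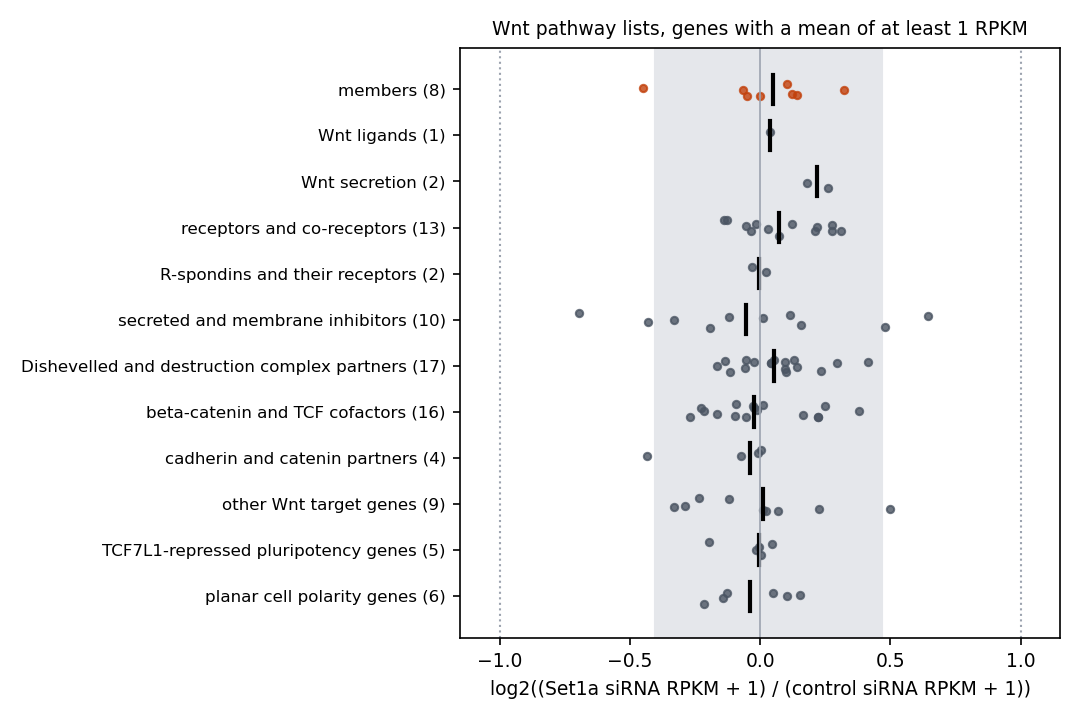
Log2 fold on the log2(RPKM + 1) scale, Set1a siRNA over control siRNA, of the members and of 11 Wnt pathway lists; points are genes above 1 RPKM (number in brackets), bars are list medians, the grey band spans the 5th to 95th percentile of all genes (-0.40 to 0.47) and dotted lines mark 2-fold. No point passes 2-fold, and the inhibitors reach furthest to both sides, from -0.70 for Cer1 to 0.65 for Sfrp2.

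Below the floor of 1 RPKM lay 47 of the 128 further pathway genes, and 36 of them had at least 1 read. Of these 36, 2 had a counting interval that excluded 1 (5.56%), beside 5.4% of 5127 such genes in all. Both were higher in the Set1a siRNA library and are named after seeing their values. Wnt6, a ligand gene, had 12 reads in the Set1a siRNA library and 2 reads in the control siRNA library, a ratio of 6.22 (1.38 to 57.2). Nkd2, for a Dishevelled-binding feedback inhibitor, had 9 reads in the Set1a siRNA library and 1 read in the control siRNA library, a ratio of 9.33 (1.29 to 409).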

How the data were processed

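RNA from 2 libraries, 1 per group, was analysed, grouped by their transfection labels. The deposited tables give 28430 RefSeq transcripts with 1 value each and no header; that these deposited values are RPKM was inferred, since value times length moved in whole reads at low levels. TopHat2 2.0.12, TopHat, SAMtools 0.1.16, CASAVA and build mm9 are named, without their roles, per the submitters' processing notes. The counting program, its strand setting and its rule for shared reads are not stated in the sources used here.

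Symbols (27957 transcripts) and lengths (27552) came from RefSeq GRCm38.p6 and GENCODE M21, and served for no mm9 coordinates. Depth was taken from the 1-read step: 74.8% of control siRNA values and 73.7% of Set1a siRNA values of 1 to 5 reads lay within 0.1 of a whole read, against 20% at random. The ratio of depths, 1.037 control siRNA over Set1a siRNA, needed no lengths: 89.8% of 1652 transcripts with 1 to 4 reads in each library fell on it. Read numbers were then the whole pair with the ratio of the values that lay nearest to the length estimate, found for 99.0% of transcripts above 0 in both. Where several pairs match, as for Tcf7, and for large read numbers, these numbers are approximate. Folds were log2((Set1a siRNA RPKM + 1)/(control siRNA RPKM + 1)) at a mean of at least 1 RPKM; ratios are of deposited values, with exact Clopper-Pearson 95% intervals. A count of 0 was limited at 3 reads.

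Members and lists were chosen with earlier results of these data known. Named from each list were genes past 2-fold, otherwise the 2 largest folds and the highest RPKM. One listed symbol, Prickle3, was not found. Alternatives varied the pseudocount, floor, scaling, transcript choice and fold rule. Scripts (Python 3.11.15, SciPy 1.17.1) were tested on simulated counts.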

Additional observations from a re-analysis of the deposited data

How the results depend on the processing

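The count of member genes past 2-fold, 0, was also 0 with pseudocounts of 0.1 and 5 RPKM, without a floor and with a floor of 5 RPKM. It was 0 as well under both rescalings, with the transcript of most reads, with transcripts summed, and with 1.5-fold and 3-fold rules. Some of these zeros were fixed in advance, since a larger pseudocount, a higher floor or a 3-fold rule cannot raise the count. The floor of 5 RPKM left 4 members. Without a floor 1 RPKM was still added, which brought the ratio of Rnf43 to 1.13. For the further pathway genes the count was 0 in each of these settings of pseudocount, floor, scaling and transcript except the pseudocount of 0.1 RPKM, where it was 1, Cer1. With a counting interval that excludes 1 as the rule, the count of member genes was 1, Tcf7l2. That member count was also 1 with read numbers from lengths alone, an alternative chosen after seeing the data. The background count of 139 of 11802 genes (1.18%) was 272 (2.30%) with a pseudocount of 0.1 RPKM and 47 (0.40%) with one of 5 RPKM. Without a floor it was 210 of 22421 genes (0.94%), and with a floor of 5 RPKM 42 of 7941 (0.53%). Both rescalings gave 1.19%, the transcript of most reads 1.18% and summed transcripts 1.32%. Under the 1.5-fold and 3-fold rules it was 533 (4.52%) and 82 of 11802 genes. By the interval it was 2740 of 11670 genes (23.5%), or 2747 with read numbers from lengths alone. Member ratios stayed within their counting intervals in all 39 combinations of a gene and an alternative setting. This was largely fixed in advance, since the rescalings were small and adding 1 RPKM draws a ratio toward 1. Most Tcf7l2 transcripts also carry the same reads. The rescalings multiplied the Set1a siRNA values by only 0.995 and 1.002. The ratio of Tcf7l2 ranged from 0.616 to 0.789 and that of Axin2 from 1.25 to 1.40. Of the list medians, those of inhibitors and planar cell polarity genes turned positive without a floor, at 0.01 and 0.02. Rnf43 and Sp5 are limited by depth, as are Lef1, Tcf7l2 and Axin2 with under 70 reads per library. No paired analysis was possible because there was 1 library per group.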

Other observations

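Among 17 markers of other cell types, 15 had reads and 3 of these had intervals above 1, named after seeing their values; 0 had an interval below 1. Over all genes above 1 RPKM 23.5% had an interval that excluded 1, and 12.2% had one above 1. Under a mean of 1 RPKM 5.4% of genes with reads had one that excluded 1 on either side. By the mean of both libraries Eomes was above 1 RPKM, and Col1a1 and Pdgfrb were under it. The 15 markers mix both levels, and no share of all genes was computed for such a mix. Thy1, a fibroblast marker, was higher by value, at 3.86 RPKM in the Set1a siRNA library and 2.42 RPKM in the control siRNA library. Its ratio was 1.59, and the interval of 0.966 to 2.66 included 1. Col3a1 had 0 reads in the Set1a siRNA library and 1 read in the control siRNA library. Mixl1 had 2 reads with Set1a siRNA and 4 reads with control siRNA, and T had 7 reads with Set1a siRNA and 5 reads with control siRNA. Col1a2 and Mesp1 were listed at 0 in both. Apart from Thy1, these genes had too few reads to give a direction. Pdgfrb was at 1.12 RPKM in the Set1a siRNA library and 0.472 RPKM in the control siRNA library, a ratio of 2.38 (1.31 to 4.48). Col1a1 had 22 reads in the Set1a siRNA library and 4 reads in the control siRNA library, a ratio of 5.70 (1.94 to 22.8). Eomes, a mesendoderm factor gene that Wnt and Nodal signalling can induce, was at 3.77 RPKM in the Set1a siRNA library and 2.55 RPKM in the control siRNA library, a ratio of 1.48 (1.06 to 2.08).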
